A study of Mus musculus with 40 samples.

Results

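The 10 core genes of the circadian clock, Arntl, Clock, Per1, Per2, Per3, Cry1, Cry2, Nr1d1, Nr1d2 and Dbp, were followed across the extensor digitorum longus (EDL), a fast-twitch hindlimb muscle, of mice with sustained mTORC1 activity. They were chosen by gene name from 22844 genes listed, and all 10 were among the 13543 genes tested, which reached 1 CPM (a count scaled to a library of fixed size) in at least 5 libraries. The data were 40 single-end, directional poly(A) RNA libraries of whole EDL muscle, 5 in each of 8 groups. All mice carried the floxed Tsc1 allele (strain Tsc1tm1Djk/J). Control littermates (CON) were Tsc1fl/fl without Cre, and TSCmKO mice lacked Tsc1, the TSC complex subunit that restrains mTORC1, in skeletal muscle. The promoter driving Cre is not given in the sources used here.

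EDL muscle was taken at 3 or 9 months of age after 3 days of intraperitoneal injections of vehicle or of rapamycin, an mTORC1 inhibitor. The groups were 3mCON, 3mCON+RM, 3mTSCmKO, 3mTSCmKO+RM, 9mCON, 9mCON+RM, 9mTSCmKO and 9mTSCmKO+RM, where RM marks rapamycin. The labels give a rapamycin dose of 4 mg per kg, whereas the study's text gives a different daily dose, so the dose is uncertain. According to the study's text, every library came from a separate animal. No label gives the time of day at which a muscle was taken. A group difference in a clock gene and a difference in dissection time therefore cannot be told apart here.

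The clock is a transcriptional feedback loop. CLOCK and BMAL1 (encoded by Arntl) pair and switch on genes that carry E-boxes, among them the Per and Cry genes, the Nr1d genes and Dbp. PER and CRY proteins accumulate and inhibit CLOCK and BMAL1. The nuclear receptors REV-ERB alpha and beta (Nr1d1 and Nr1d2) repress Arntl through ROR response elements, where ROR receptors act in the opposite sense, and DBP activates genes with D-boxes. In skeletal muscle the loop sets daily rhythms in fuel use, and in a fixed light cycle Arntl peaks in opposite phase to the Per genes and Dbp.

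Promoter windows are shown for the 3 genes that held one of these sites in the 250 bases before an annotated start, the letters through which the loop is known to act. Both strands were searched for the E-box CACGTG, the D-box TTANGTAA, the cyclic AMP response element TGACGTCA and the ROR response element. The sequences are from RefSeq on build GRCm38.p6, read 5′ to 3′ on the gene's strand, and capitals mark a match. The windows are Per1 at chr11:69098699-69098948 on the plus strand, Per3 at chr4:151044666-151044915 on the minus strand and Cry1 at chr10:85185055-85185304 on the minus strand.
Per1: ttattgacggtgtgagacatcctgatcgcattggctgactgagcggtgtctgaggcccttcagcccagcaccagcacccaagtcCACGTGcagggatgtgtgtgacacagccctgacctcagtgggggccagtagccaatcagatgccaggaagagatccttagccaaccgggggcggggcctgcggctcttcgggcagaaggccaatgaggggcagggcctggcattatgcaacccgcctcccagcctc
Per3: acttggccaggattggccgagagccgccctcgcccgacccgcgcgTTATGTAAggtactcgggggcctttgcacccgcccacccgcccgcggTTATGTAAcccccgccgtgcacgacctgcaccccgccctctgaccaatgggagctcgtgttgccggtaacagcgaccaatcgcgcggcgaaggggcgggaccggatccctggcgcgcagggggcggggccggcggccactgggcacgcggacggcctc
Cry1: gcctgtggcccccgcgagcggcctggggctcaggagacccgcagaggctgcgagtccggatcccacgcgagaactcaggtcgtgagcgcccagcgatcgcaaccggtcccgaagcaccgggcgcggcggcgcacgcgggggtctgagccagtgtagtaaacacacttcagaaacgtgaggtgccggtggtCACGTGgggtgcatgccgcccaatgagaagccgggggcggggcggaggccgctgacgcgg
Per1 held an E-box 166 bases before the start of the first of its 2 windows, and Cry1 held one 60 bases before its start. Per3 held 2 D-boxes, at 205 and 158 bases before the start. Among 32851 promoter windows of the same length, 6.02% held the E-box and 2.06% the D-box. The cyclic AMP response element (1.55% of windows) and the ROR response element (0.332%) were found in none of the 13 windows of the 9 members with an entry. Per2 had no entry. A match is a description of these letters, and a missing match says nothing of sites outside the window.

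Tsc1 was lower in TSCmKO muscle in all 4 genotype comparisons, with log2 differences between -1.55 and -1.99 and no overlap between groups, so the libraries matched their genotype labels. Total estimated counts ran from 8883870 to 35224669 per library. The 6 muscle fiber markers summed to between 95690 and 155400 TPM (transcripts scaled by length and to a fixed total) in every library, so the tissue carried its labelled markers. Their sum was 95690 to 114700 TPM in 9mTSCmKO, below 128700 to 139400 TPM in 9mCON, and 124600 to 144000 TPM in 9mTSCmKO+RM. In bulk RNA, fewer cells of a type and less RNA per cell cannot be told apart. Labelled insert size ranged from 175 to 239 nt in libraries of young muscle but from 223 to 308 nt in those of 9 months, so age and library preparation cannot be fully told apart.

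On the per-length TPM scale, with all 40 libraries pooled, the REV-ERB genes were the most abundant members and Per2 the least. Averaged over 40 libraries, the levels were 156.1 TPM for Nr1d1, 98.43 for Nr1d2, 78.04 for Dbp, 35.01 for Cry2, 31.47 for Per1, 20.6 for Clock, 19.47 for Arntl, 13.85 for Per3, 12.98 for Cry1 and 5.242 for Per2. Nr1d1 stood above 96.25% of listed genes in mean TPM and Per2 above 60.76%. Over all 40 libraries the range of every member overlapped that of its neighbour in this order. The order also differed between groups. Dbp (93.92 TPM) stood above Nr1d2 (91.48 TPM) in 9mCON+RM, and Per1 (39.8 TPM) above Cry2 (23.71 TPM) in 9mCON. In 9mTSCmKO, Nr1d1 (112.1 to 154.4 TPM) lay above Nr1d2 (40.94 to 89.32 TPM) in every library. Per3 stood at 13.03 TPM in 9mCON and 5.636 TPM in 9mTSCmKO.

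**Figure D1:**
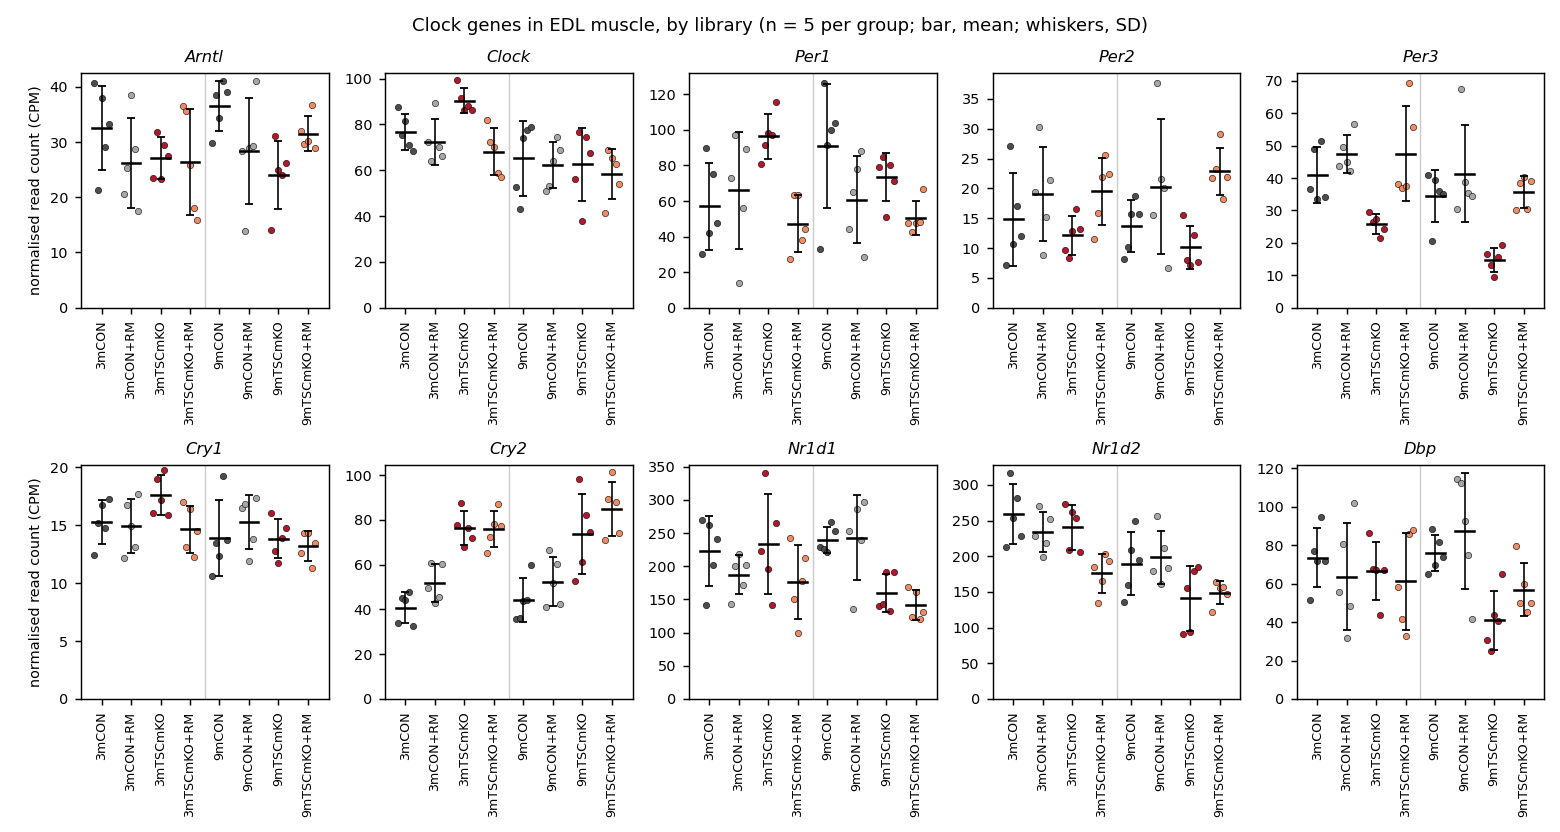
Normalised read counts (CPM, linear axis from 0) of the 10 clock genes in each of 40 libraries, with 5 points per group, the mean as a bar and the SD as whiskers; 3-month groups are left of the grey line. Per3 in 9mTSCmKO (9.44 to 19.25 CPM) sits below every 9mCON library (20.68 to 40.92 CPM), and Cry2 in 3mTSCmKO (67.85 to 87.73 CPM) sits above every 3mCON library.

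Muscle without Tsc1 differed from control muscle in 6 of 10 clock genes at 9 months. Per3, Dbp, Arntl, Nr1d1 and Nr1d2 were lower in 9mTSCmKO than in 9mCON and Cry2 was higher, while Clock, Per1, Per2 and Cry1 did not pass the test. Thus 5 of 10 members fell and 1 rose, where 18.9% and 19.1% of all genes tested did (37.9% in either direction). The median log2 fold change of the members was -0.43, against -0.02 over all genes. Tests were edgeR's quasi-likelihood test across all genes with Benjamini-Hochberg adjustment, called at an adjusted p under 0.05, and errors of fold changes are SE.

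Per3, a period gene with a weaker part in timekeeping than Per1 and Per2, lies at chr4:151003652-151044665 (GRCm38, minus strand), where Camta1 overlaps it on the same strand. Its CPM values were 16.65, 13.18, 9.44, 15.58 and 19.25 in 9mTSCmKO and 40.92, 20.68, 39.31, 36.03 and 35.07 in 9mCON. Every knockout library lay below every control, and the lowest control, replicate 2, was nearest to them. The difference was -1.21 ± 0.20 on the log2 scale, or 2.32-fold lower (95% confidence interval of the log2 value -1.62 to -0.80, adjusted p = 9.06e-06).

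Dbp, a PAR bZIP transcription factor and clock output, lies at chr7:45705088-45710203 (plus strand), where Sphk2 is annotated on the other strand. It measured 30.53, 25.18, 43.51, 40.4 and 64.92 CPM in 9mTSCmKO and 65.02, 88.59, 69.93, 81.77 and 73.75 CPM in 9mCON. The groups did not overlap, although the highest knockout and the lowest control nearly met. The log2 difference was -0.89 ± 0.28, 1.85-fold lower (adjusted p = 0.0124).

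Cry2, which encodes a cryptochrome repressor, lies at chr2:92403646-92434043 (minus strand). Its values were 52.59, 98.38, 61.21, 82.19 and 74.81 CPM in 9mTSCmKO against 35.61, 36.37, 43.78, 44.43 and 59.96 CPM in 9mCON. Only 9mCON replicate 5 reached into the knockout range. Cry2 was higher by 0.74 ± 0.16 on the log2 scale, or 1.68-fold (adjusted p = 0.000212).

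Nr1d1 (chr11:98767932-98775333, minus strand, overlapping Thra on the other strand) measured 140.8, 143.6, 191.4, 132.1 and 191.1 CPM in 9mTSCmKO against 229.2, 225.8, 221.4, 266.7 and 253.2 CPM in 9mCON, without overlap. The log2 difference was -0.58 ± 0.21 (adjusted p = 0.025). Its call was lost without any 1 of 9mCON replicates 4 or 5 or 9mTSCmKO replicates 1, 2 or 4, with adjusted p between 0.0505 and 0.0628, and by limma on log2(TPM + 1), with 0.0608.

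Arntl (chr7:113207465-113314126, plus strand), the activating partner of CLOCK, measured 14.1, 31.01, 25.02, 24.01 and 26.12 CPM in 9mTSCmKO and 29.76, 38.56, 34.35, 41.05 and 39.04 CPM in 9mCON. All but 1 knockout library, replicate 2, lay below all controls, and the log2 difference was -0.60 ± 0.23 (adjusted p = 0.0327). Its call was lost without any 1 of 9mCON replicates 2, 4 or 5 or 9mTSCmKO replicates 1, 3 or 4, with adjusted p from 0.0505 to 0.122, and by limma, with 0.0658. Without 9mTSCmKO replicate 1 the value was -0.45.

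Nr1d2 (chr14:18204054-18239127, minus strand) spanned 90.56 to 184.9 CPM in 9mTSCmKO and 136.4 to 249.1 CPM in 9mCON, and these ranges overlapped. Its log2 difference was -0.43 ± 0.17 (adjusted p = 0.0437). Leaving out any 1 of 9mCON replicates 3, 4 or 5 or 9mTSCmKO replicates 1 or 3 ended this call, with adjusted p from 0.0879 to 0.176, and so did 5 of 8 other analyses, with adjusted p up to 0.232.

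Per3, Dbp and Cry2 kept their calls at 9 months in all 10 fits that left out 1 library and in all 8 other analyses. Without overlap between groups were 3 of 10 members (Per3, Nr1d1 and Dbp), against 16.0% of all genes. Markers of cell types were also called in this comparison, where 37.9% of all genes were. Lower in 9mTSCmKO were 3 of 6 muscle fiber, 3 of 4 tendon, 3 of 4 fibroblast, 2 of 4 adipocyte, 2 of 4 endothelial, 1 of 4 Schwann cell and 1 of 3 smooth muscle markers. Of 5 macrophage markers 1 was higher, although their median log2 fold change was -0.469. Summed fibroblast markers ran from 247.8 to 615.5 TPM in 9mTSCmKO and 577.6 to 1190 TPM in 9mCON, and summed tendon markers from 14.31 to 37.26 and 30.2 to 257 TPM. Their part in the clock gene differences was not tested.

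At 3 months the knockout changed 2 members. Cry2 rose and Per3 fell (1 of 10 each way, where 11.4% of all genes rose and 8.32% fell, 19.8% together), and the members' median log2 fold change was -0.02, the same as over all genes. Cry2 measured 77.82, 87.73, 67.85, 76.56 and 71.83 CPM in 3mTSCmKO and 34.1, 45.03, 44.32, 47.7 and 32.53 CPM in 3mCON. Every knockout library lay above every control, at 1.87-fold or 0.90 ± 0.16 on the log2 scale (adjusted p = 2.97e-05).

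Per3 measured 29.52, 26.46, 27.24, 21.4 and 24.22 CPM in 3mTSCmKO and 36.56, 48.86, 33.54, 51.39 and 34.13 CPM in 3mCON, again without overlap. The log2 difference was -0.67 ± 0.20, 1.59-fold lower (adjusted p = 0.0132), and it missed the threshold without 3mCON replicate 4 (-0.57, adjusted p = 0.0536). These 2 of 10 members without overlap stood beside 19.6% of all genes. In this comparison 1 of 4 tendon and 1 of 3 smooth muscle markers were lower in 3mTSCmKO, and their part was not tested. Per1, an immediate responder to light and hormones, did not pass at 0.76 ± 0.35 (adjusted p = 0.123, but 0.04997 with only the compared groups fitted), with 80.85 to 115.6 CPM in 3mTSCmKO and 30.46 to 89.61 CPM in 3mCON.

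Dbp at 3 months spanned 43.7 to 86.39 CPM in 3mTSCmKO and 51.68 to 94.69 CPM in 3mCON, a log2 difference of -0.15 ± 0.28. Nr1d1 differed by 0.06 ± 0.21 and Arntl by -0.26 ± 0.23, neither past the threshold. The genotype by age interaction tests whether the genotype difference itself changed with age. By edgeR it called 0 of 10 members (4.94% of all genes), by DESeq2 0 and by limma 0, and 2 had an unadjusted p under 0.05. These were Per1 (-1.07 ± 0.49, adjusted p = 0.216) and Nr1d1 (-0.64 ± 0.29, adjusted p = 0.214). The difference in Dbp was -0.74 ± 0.40 (adjusted p = 0.302) and in Per3 -0.54 ± 0.28 (adjusted p = 0.284). The larger number of calls at 9 months is thus not shown to be a difference between ages for any 1 member.

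Among rapamycin-treated mice the genotypes still differed in Cry2. At 9 months Cry2 measured 71.2, 89.49, 101.3, 88.16 and 74.21 CPM in 9mTSCmKO+RM and 41.27, 66.38, 52.02, 60.43 and 42.25 CPM in 9mCON+RM, without overlap (0.69 ± 0.16 log2, adjusted p = 0.000916). At 3 months it measured 65.23, 72.16, 78.25, 86.91 and 77.27 CPM in 3mTSCmKO+RM and 49.79, 60.9, 42.82, 45.35 and 60.24 CPM in 3mCON+RM, also without overlap (0.55 ± 0.15, adjusted p = 0.0157). The 3-month call was lost without 3mCON+RM replicate 3 or 4 or 3mTSCmKO+RM replicate 4 (adjusted p 0.0525 to 0.0564) and by limma (0.0579).

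Nr1d1 was lower in 9mTSCmKO+RM, at 168.9, 122.8, 161.8, 120.6 and 131.3 CPM against 253.4, 136, 287.1, 239.9 and 297.2 CPM in 9mCON+RM, where replicate 2 alone lay within the knockout range. The difference was -0.78 ± 0.21 (adjusted p = 0.00541). Calls under rapamycin were thus 1 higher and 1 lower of 10 at 9 months (11.3% and 9.33% of all genes, 20.6% together) and 1 higher and 0 lower at 3 months (5.67% and 4.36%, 10% together). Cry2 alone did not overlap at either age, against 13.6% of all genes at 9 months and 14.3% at 3 months. At 9 months 2 of 4 endothelial and 1 of 6 muscle fiber markers were lower in 9mTSCmKO+RM and 1 of 5 macrophage markers higher, and at 3 months 1 of 4 tendon markers was higher in 3mTSCmKO+RM. Their part was not tested. Per3 did not pass at either age, with -0.21 ± 0.20 at 9 months and 0.00 ± 0.20 at 3 months.

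**Figure D2:**
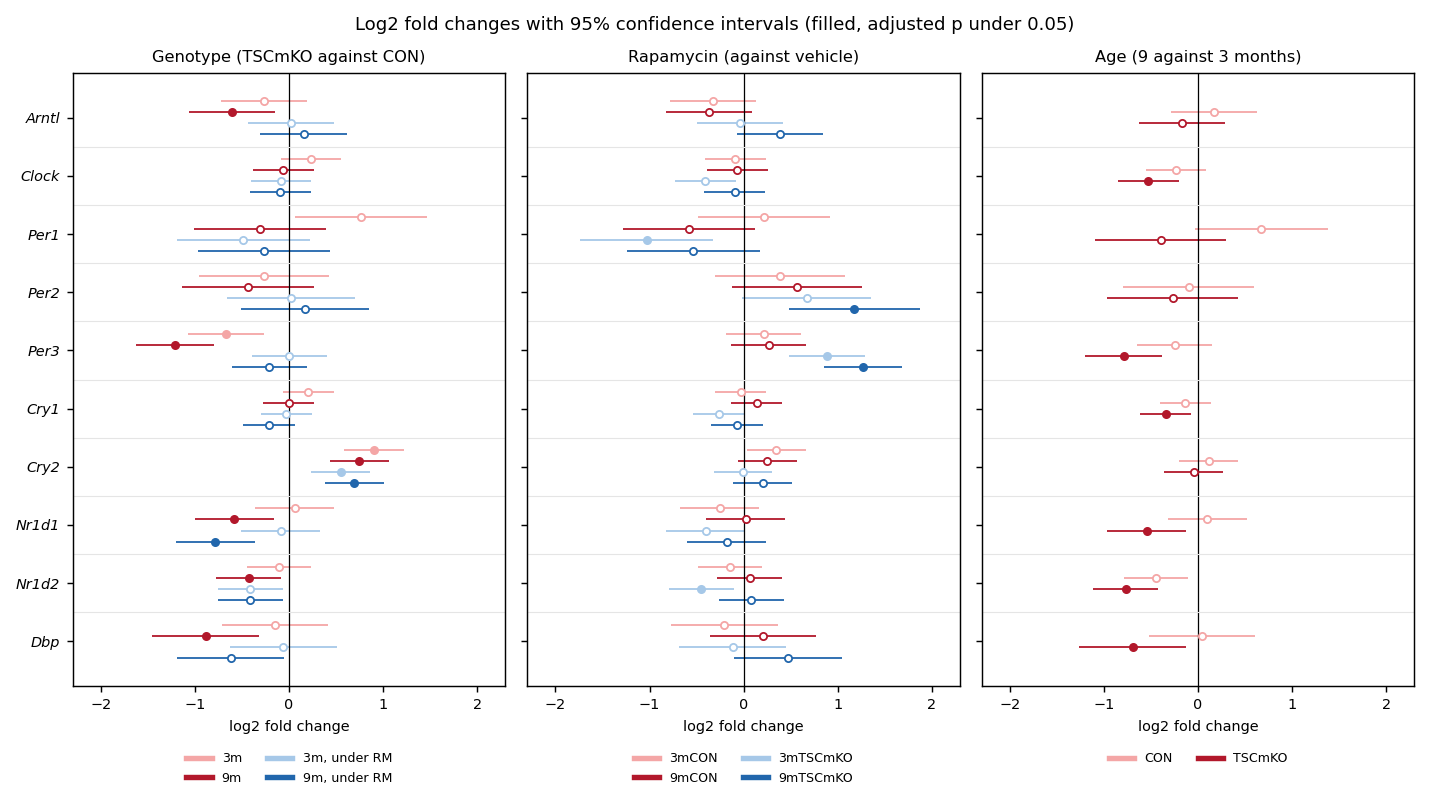
Log2 fold changes of the 10 clock genes with 95% confidence intervals from the edgeR fit to 40 libraries, for genotype, rapamycin and age; filled points passed an adjusted p of 0.05 over all genes. Cry2 is filled to the right of 0 in all 4 genotype comparisons, and Per3 is filled to the right of 0 for rapamycin in TSCmKO muscle at both ages and open in CON muscle.

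Rapamycin raised Per3 in TSCmKO muscle at both ages and Per2 at 9 months, and no member passed in CON muscle. In 9mTSCmKO+RM, Per3 measured 30.28, 38.61, 40.24, 30.47 and 39.09 CPM, above all 5 untreated 9mTSCmKO libraries (9.44 to 19.25 CPM). The rise was 2.41-fold, 1.27 ± 0.20 on the log2 scale (adjusted p = 7.53e-06). These levels lay within the 20.68 to 40.92 CPM of 9mCON.

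Per2 (chr1:91415982-91459324, minus strand), a core repressor, measured 21.75, 23.28, 29.04, 18.27 and 21.95 CPM in 9mTSCmKO+RM and 15.45, 8.061, 7.205, 12.24 and 7.699 CPM in 9mTSCmKO. The groups did not overlap, and the rise was 2.26-fold, 1.18 ± 0.34 on the log2 scale (adjusted p = 0.00814). Both calls held in all 10 fits without 1 library and all 8 other analyses. Called higher were 2 of 10 members and lower 0, against 15.8% and 16.8% of all genes (32.6% together), and the same 2 of 10 did not overlap, against 15.1%. In this comparison 3 of 6 muscle fiber and 1 of 2 satellite cell markers were higher under rapamycin and 1 of 4 endothelial and 1 of 4 Schwann cell markers lower, and their part was not tested.

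In 3mTSCmKO, rapamycin raised Per3 and lowered Per1 and Nr1d2, 1 of 10 higher and 2 of 10 lower against 10.6% and 13% of all genes (23.6% together). Of all genes called in this comparison 44.9% were higher, and 55.7% under upper-quartile scaling. Per3 measured 38.2, 36.88, 37.64, 69.36 and 55.8 CPM in 3mTSCmKO+RM, all above 3mTSCmKO, a 1.85-fold rise (0.89 ± 0.20 log2, adjusted p = 0.00085). This call held in every fit tried.

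Per1 (chr11:69095217-69109960, plus strand) measured 27.21, 63.26, 63.31, 38.31 and 44.47 CPM in 3mTSCmKO+RM and 80.85, 91.26, 98.07, 96.97 and 115.6 CPM in 3mTSCmKO, without overlap, a 2.04-fold fall (-1.03 ± 0.35, adjusted p = 0.028). The call ended without 3mTSCmKO replicate 5 or 3mTSCmKO+RM replicate 1, 4 or 5 (adjusted p 0.0542 to 0.0809) and with no filter on low counts (0.059). Nr1d2 measured 134.6 to 203.1 CPM against 205.7 to 272.9 CPM, also without overlap, with -0.45 ± 0.17 (adjusted p = 0.049). It was lost without any 1 of 3mTSCmKO replicates 1, 3 or 4 or 3mTSCmKO+RM replicates 1, 2, 3 or 5 (adjusted p 0.0546 to 0.149) and in 5 of 8 other analyses, with adjusted p up to 0.166.

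Clock (chr5:76209868-76304792, minus strand), which encodes the partner of BMAL1, also separated in 3mTSCmKO under rapamycin, at 56.99 to 81.78 CPM against 86.14 to 99.3 CPM. Its difference of -0.41 ± 0.16 missed the threshold (adjusted p = 0.0584), and passed without 3mTSCmKO+RM replicate 1 (-0.48, adjusted p = 0.0355) and with only the compared groups fitted (-0.41, adjusted p = 0.00732). Per3, Clock, Per1 and Nr1d2 were the 4 of 10 members without overlap, against 21.1% of all genes. In this comparison 3 of 6 muscle fiber, 2 of 5 macrophage, 1 of 4 fibroblast and 1 of 4 tendon markers were higher, and their part was not tested.

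In control muscle, edgeR called 0 of 10 members with rapamycin at 9 months (11.8% of all genes) and 0 of 10 at 3 months (0.679%). DESeq2 and limma called 0 at either age. At 9 months 0 members had an unadjusted p under 0.05, and at 3 months 1 had, Cry2 (0.35 ± 0.16, adjusted p = 0.474). No member separated the groups at either age, where 6.64% and 5.41% of all genes did. Per3 measured 30.33, 67.56, 38.93, 35.5 and 34.35 CPM in 9mCON+RM, a difference of 0.27 ± 0.20 from 9mCON (adjusted p = 0.446). In 3mCON+RM it measured 42.04 to 56.72 CPM, a difference of 0.21 ± 0.20. Markers of other cells fell with rapamycin in 9mCON (4 of 5 macrophage, 4 of 4 fibroblast and 3 of 4 tendon, with 1 of 4 Schwann cell), and their part was not tested.

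The rapamycin by genotype interaction compares the 2 responses directly. At 9 months it called 1 of 10 members, Per3 (4.87% of all genes, 2.56% higher and 2.31% lower), whose response was larger in TSCmKO by 1.001 ± 0.282 on the log2 scale (adjusted p = 0.0312). That call was lost in 9 of 20 fits without 1 library, those without 9mCON replicates 1 or 3, 9mCON+RM replicates 1, 4 or 5, 9mTSCmKO replicate 3 or 9mTSCmKO+RM replicates 2, 3 or 5 (adjusted p 0.0507 to 0.0648). It was also lost with no filter on low counts, with insert size as a term and with only the 4 groups fitted, with adjusted p up to 0.0971.

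At 9 months the Per2 response differed by 0.61 ± 0.48 (adjusted p = 0.508), so a larger Per2 response in TSCmKO muscle was not shown. At 3 months the interaction called 0 of 10 by edgeR (3.45% of all genes), by DESeq2 0 and by limma 0, with 2 at an unadjusted p under 0.05. These were Per1 (-1.25 ± 0.49, adjusted p = 0.188) and Per3 (0.67 ± 0.28, adjusted p = 0.22). Per1 was 13.94 CPM in 3mCON+RM replicate 3 and 56.21 to 97.13 CPM in the other 4 libraries, and without that library its interaction was -1.50 (adjusted p = 0.0392).

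Between 3 and 9 months 6 of 10 clock genes fell in TSCmKO and 0 were called in CON. In CON, 0 of 10 were called by edgeR, DESeq2 or limma (1.02% of all genes), 1 had an unadjusted p under 0.05 (Nr1d2, -0.45 ± 0.17, adjusted p = 0.162), and none separated the groups (3.26% of all genes). In TSCmKO, 6 of 10 were lower and 0 higher, against 18.3% and 19.1% of all genes (37.4% together), and the members' median was -0.46 against 0.00 over all genes. Called were Clock, Per3, Cry1, Nr1d1, Nr1d2 and Dbp. The test of the difference between the genotypes is the genotype by age interaction above, which called 0 members.

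Per3 was 1.73-fold lower at 9 months (-0.79 ± 0.20, adjusted p = 0.00234) and Nr1d2 1.71-fold lower (-0.77 ± 0.17, adjusted p = 0.000593), with no overlap in either. Both held in every fit tried. Clock was also without overlap, at 37.81 to 76.72 CPM in 9mTSCmKO and 86.14 to 99.3 CPM in 3mTSCmKO (-0.53 ± 0.16, adjusted p = 0.00872). Clock missed the threshold without 9mTSCmKO replicate 3 (adjusted p = 0.0575) and with insert size as a term (0.273). These 3 of 10 compare with 18.6% of all genes.

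Cry1 (chr10:85131700-85185064, minus strand), the other cryptochrome, differed by -0.34 ± 0.13 (adjusted p = 0.0403), Nr1d1 by -0.55 ± 0.21 (0.0361) and Dbp by -0.70 ± 0.28 (0.049). All 3 were lost in many fits. Cry1 was lost without any 1 of 3mTSCmKO or 9mTSCmKO replicates 2, 3 or 4 (adjusted p up to 0.137). Nr1d1 was lost without any 1 of 3mTSCmKO replicates 1, 2 or 5 or 9mTSCmKO replicates 1, 2 or 4 (up to 0.17). Dbp was lost without any 1 of 3mTSCmKO replicates 1, 2, 3 or 5 or 9mTSCmKO replicates 1, 2, 3 or 4 (up to 0.135). With insert size as a term, 2 of the 6 calls remained, Per3 and Nr1d2. Calls over all genes fell as well in that fit, from 5064 to 1702 of 13543. Adipocyte (4 of 4), blood (3 of 3), fibroblast (3 of 4), endothelial (3 of 4), tendon (3 of 4) and muscle fiber (2 of 6) markers were lower in the same comparison, with 1 of 5 macrophage markers lower and 1 higher, 1 of 4 tendon and 1 of 4 Schwann cell markers higher, and their part was not tested.

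Libraries of 1 group differed most in Per1 and Per2. The within-group SD of log2 CPM was 0.63 for Per1, higher than for 93.8% of genes tested, 0.58 for Per2 (91.2%) and 0.48 for Dbp (83.9%). It was 0.39 for Arntl and 0.21 for Cry1, against a median of 0.27 over all genes. In 3mCON+RM the highest Per1 library was 6.97 times the lowest, and in 9mCON+RM the highest Per2 library was 5.71 times the lowest.

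These deviations were shared between members. After the group means were removed, 15 of 45 member pairs were correlated over 40 libraries, 9 positively and 6 negatively (permutation within groups, 100000 resamples, Benjamini-Hochberg over 45 pairs). How often pairs of other genes would pass was not tested, so the count is not shown to be particular to clock genes. Arntl ran opposite to Per2, with Pearson's r = -0.702, Spearman's rho = -0.625 and a permutation p = 2e-05 (adjusted 0.00045). Without the 2 libraries farthest from the median of Arntl, r was -0.612, and within ages it was -0.731 at 3 months and -0.673 at 9 months. Those 2 libraries, here and below, were picked on log2 CPM before group means were removed, so they need not deviate most from their group. Arntl also ran opposite to Per3, with r = -0.654, rho = -0.66 and a permutation p = 0.00025 (adjusted 0.00281), -0.554 without the 2 farthest libraries, -0.75 at 3 months and -0.594 at 9 months.

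Per1 and Per2 rose and fell together, with r = 0.712, rho = 0.619 and a permutation p = 1e-05, the smallest 100000 resamples can give (adjusted 0.00045). Without the 2 farthest libraries r was 0.657, and it was 0.795 at 3 months and 0.622 at 9 months. Cry2 went with Nr1d2, with r = 0.66, rho = 0.676 and a permutation p = 0.00017 (adjusted 0.00255), and r = 0.635 without the 2 farthest, 0.549 at 3 months and 0.708 at 9 months. Nr1d1 ran opposite to Per2, with r = -0.537, rho = -0.469 and a permutation p = 0.00184 (adjusted 0.0166), and r = -0.454 without the 2 farthest, -0.577 at 3 months and -0.503 at 9 months. Arntl and Dbp also ran opposite, with r = -0.523, rho = -0.48 and a permutation p = 0.00959 (adjusted 0.0363), and r = -0.624 without the 2 farthest, -0.702 at 3 months and -0.295 at 9 months. Arntl and Nr1d1 did not pass, with r = 0.422 and a permutation p = 0.0297 (adjusted 0.0742), and r = 0.276 at 3 months and 0.657 at 9 months.

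Within the 20 libraries of 3 months 19 pairs passed, and within the 20 of 9 months 0 passed, with 7 at an unadjusted p under 0.05. All 15 pairs had the same sign at both ages. The count fell to 8 without 3mCON replicate 1, to 6 without 3mCON+RM replicate 3, to 6 without 3mTSCmKO+RM replicate 4 and to 7 without 9mCON+RM replicate 2. The libraries also differ in depth and in marker sums, and their part in these correlations was not tested.

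**Figure D3:**
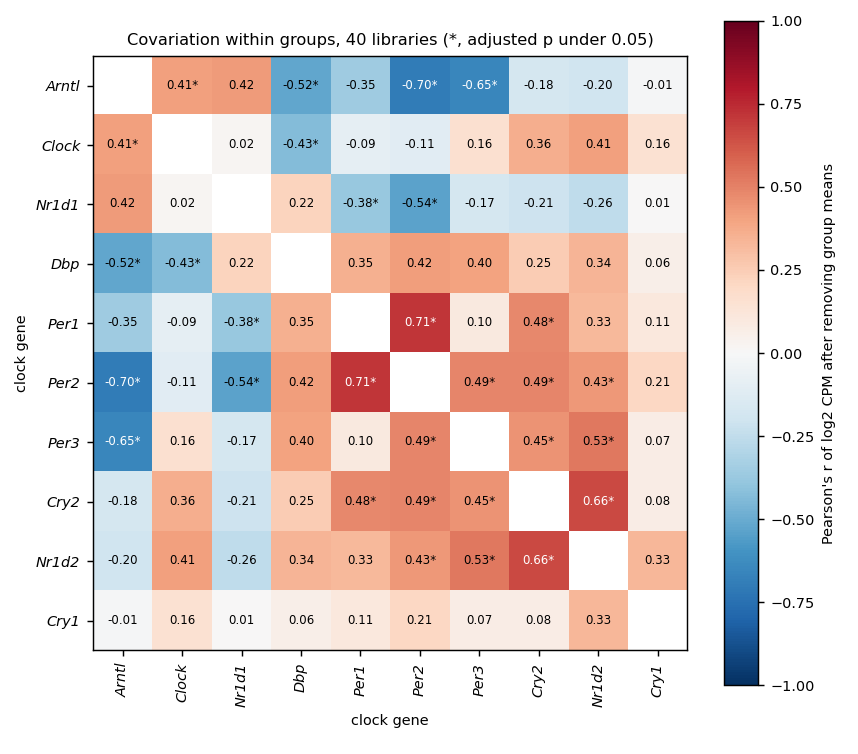
Pearson's r between the 10 clock genes over 40 libraries, from log2 CPM with each group's mean removed (colour from -1 to 1, printed in each cell; an asterisk marks an adjusted p under 0.05). Arntl is blue against Per2 (-0.70), Per3 (-0.65) and Dbp (-0.52), while Per1, Per2, Cry2 and Nr1d2 hold positive pairs.

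The genes most like Dbp and Arntl in these deviations were taken from 9638 genes with a mean of at least 5 CPM, as a description with no test. Closest to Dbp was Ciart, a clock-controlled repressor of CLOCK and BMAL1 (r = 0.739), followed by Ddx49 (0.63), Eri3 (0.619), Bhlhe40 (0.615), which encodes the E-box repressor DEC1, and Ppp4c (0.595). Lowest against Dbp were Sdc4 (-0.641), Pdk4 (-0.62), a kinase that limits glucose oxidation, and Kif21a (-0.596). Among the closest to Arntl were Slc16a9 (0.779), Fam53b (0.661), Dmpk (0.632) and Asb2 (0.601). Lowest against Arntl were Per2 and Per3 themselves and Mir22hg (-0.581).

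Of 20 further clock-associated genes, 19 were tested, Fbxl21 being listed below the count filter. At 9 months 1 was higher and 4 lower with genotype (37.9% of all genes called). The higher call, Rorb, was lost without 9mTSCmKO replicate 1 (14.25 CPM, against 2.18 to 2.94 CPM in the others) and in 6 of 8 other analyses. Without 9mCON replicate 4 the calls of Rorb, Tef and Fbxw11 were all lost. Rorb and Fbxw11 are named after their values were seen. Hlf, a PAR bZIP factor related to Dbp, fell the furthest. It measured 3.43, 6.24, 2.57, 5.71 and 10.32 CPM in 9mTSCmKO against 21.91, 13.73, 23.72, 27.4 and 26.86 CPM in 9mCON, without overlap. The log2 difference was -1.998 ± 0.254 (adjusted p = 5.67e-08), and it held in every fit tried. Bhlhe40 was lower by 1.12 on the log2 scale (-1.12 ± 0.28, adjusted p = 0.00192), likewise in every fit. Tef, the third PAR bZIP factor, differed by -0.38 ± 0.13 (adjusted p = 0.0211), and lost this call without any 1 of 9mCON replicates 3, 4 or 5 or 9mTSCmKO replicates 1 or 3 (adjusted p up to 0.106) and with only the compared groups fitted (0.197).

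Hlf responded to rapamycin in 9mTSCmKO, where it rose by 1.17 ± 0.25 to 11.97, 11.81, 14.68, 12.75 and 12.93 CPM (adjusted p = 0.000467), in every fit tried. At 3 months its genotype difference was -0.64 ± 0.24 (adjusted p = 0.0541), and the genotype by age interaction was -1.36 ± 0.35 (adjusted p = 0.0162), lost with only the 4 groups fitted (0.0608). The rapamycin by genotype interaction at 9 months was 1.13 ± 0.35 (adjusted p = 0.0493), lost in 16 of 20 fits without 1 library (adjusted p up to 0.0972) and in 5 of 8 other analyses (up to 0.144). Under rapamycin at 9 months, 4 of 19 were lower and 1 higher with genotype, where 20.6% of all genes were called. Hlf stayed lower by 0.87 on the log2 scale (-0.87 ± 0.24, adjusted p = 0.00794), in all 10 fits without 1 library but not by limma (0.0572). Also lower were Bhlhe40 (-1.17 ± 0.28, adjusted p = 0.00221) and Tef (-0.52 ± 0.13, adjusted p = 0.00325, but 0.112 by limma).

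**Figure D4:**
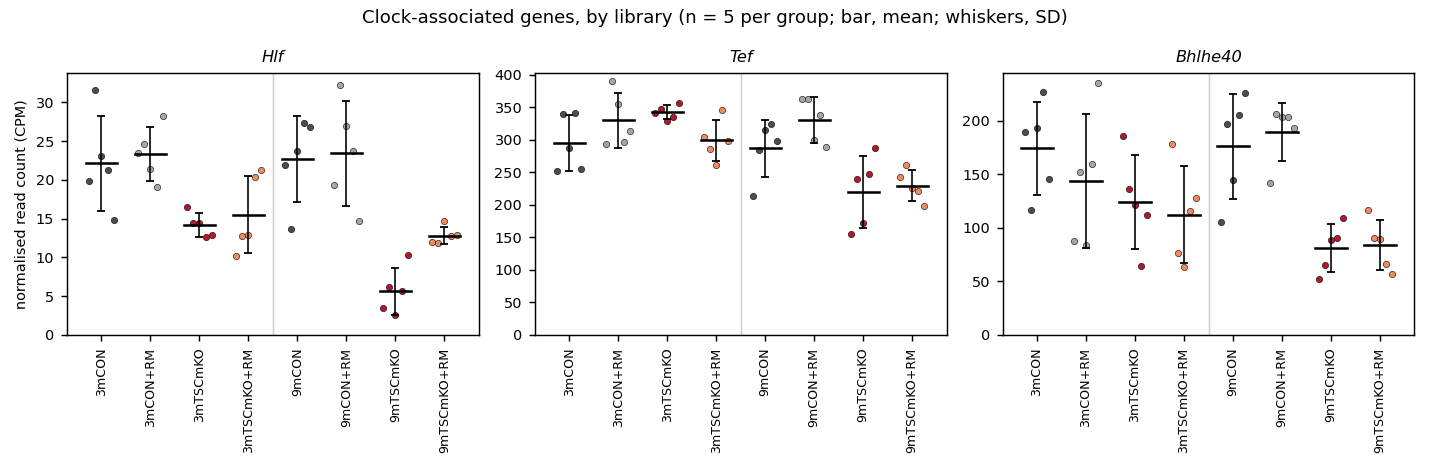
Normalised read counts (CPM, linear axis from 0) of Hlf, Tef and Bhlhe40 in each of 40 libraries, with 5 points per group, the mean as a bar and the SD as whiskers; 3-month groups are left of the grey line. Hlf in 9mTSCmKO lies at 2.57 to 10.32 CPM and in 9mTSCmKO+RM at 11.81 to 14.68 CPM.

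Rapamycin also changed other clock-associated genes. Of 19 genes, 4 rose and 1 fell with rapamycin in 9mTSCmKO (32.6% of all genes called), 1 rose and 5 fell in 3mTSCmKO (23.6%), 2 rose and 1 fell in 9mCON (11.8%), and 0 passed in 3mCON (0.679%). In 3mTSCmKO the falls included Csnk1a1, a casein kinase (-0.45 ± 0.11, adjusted p = 0.00242, but 0.0544 by limma), and Bhlhe41 (-0.60 ± 0.17, adjusted p = 0.00642).

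Of 11 clock output genes tested, 1 rose and 1 fell with genotype at 9 months (37.9% of all genes called), and 1 rose and 4 fell with rapamycin in 3mTSCmKO (23.6%). Klf15, a regulator of amino acid and lipid use, fell the furthest there, by 1.36 on the log2 scale (-1.36 ± 0.17, adjusted p = 1.32e-07). Por, an electron donor to cytochrome P450 enzymes, rose by 0.67 ± 0.10 in 3mTSCmKO (adjusted p = 4.91e-06) and by 0.44 ± 0.10 in 9mTSCmKO (adjusted p = 0.00101). Nampt, the rate-limiting enzyme of NAD salvage, fell by 0.62 in 3mTSCmKO (-0.62 ± 0.13, adjusted p = 0.000286). These calls held in every fit tried.

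Per1 is also induced by glucocorticoids and by CREB. Of 12 such targets tested, 1 rose and 3 fell with genotype at 9 months (37.9% of all genes called), 3 rose and 0 fell at 3 months (19.8%), and 0 rose and 3 fell with rapamycin in 3mTSCmKO (23.6%). The part of either signal in the Per1 values was not tested. Tsc22d3 (GILZ), a glucocorticoid-induced gene, was higher in 3mTSCmKO than in 3mCON (0.80 ± 0.21, adjusted p = 0.00485) and fell with rapamycin in 3mTSCmKO (-0.99 ± 0.21, adjusted p = 0.000473). Sgk1, a kinase gene of the same kind, fell by 1.16 with rapamycin in 3mTSCmKO (-1.16 ± 0.22, adjusted p = 0.000128). At 9 months Tsc22d3 was also higher with genotype (0.52, adjusted p = 0.0466). That call was lost in 7 of 10 fits without 1 library and in 5 of 8 other analyses. In 9mTSCmKO, rapamycin lowered Tsc22d3 (-1.04, adjusted p = 0.000212) and Sgk1 (-0.70, adjusted p = 0.0133). Per1 did not pass in either 9-month comparison (-0.31, adjusted p = 0.503, and -0.53, adjusted p = 0.244). In 9mCON, 1 rose and 5 fell with rapamycin (11.8% of all genes called), the 3 with the lowest adjusted p being Fosb, an immediate early gene (-4.88 ± 0.85, adjusted p = 0.000239), Nr4a1, a nuclear receptor induced by CREB (-1.66 ± 0.34, adjusted p = 0.00133), and Sik1, a CREB-induced kinase (-1.29 ± 0.34, adjusted p = 0.0104). Without 9mCON replicate 2 alone, 3 of these 5 falls (Fos, Egr1 and Sik1) lost their calls and 2 (Fosb and Nr4a1) kept them. Fos and Egr1 are named after their values were seen. Nr4a1 held in every fit tried. Fosb was -2.57 without 9mCON replicate 2 and was lost with only the compared groups fitted (adjusted p = 0.0851). Sik1 was lost without the same library (-0.51, adjusted p = 0.192) and with only the compared groups (0.127). Leaving out 9mCON replicate 2 also ended the 9-month genotype calls of Fosb (adjusted p = 0.682) and Tsc22d3.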

How the data were processed

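The authors trimmed reads with Cutadapt 1.9.1 and quantified them with kallisto 0.43.1 against GRCm38 transcripts, per the labels and the study's methods. The methods name protein-coding transcripts, yet 4781 of the 22844 listed genes have another type in GENCODE M21, so the reference held more than that. The deposited files hold estimated counts per gene, as whole numbers, and TPM computed by the authors. Reads that fit several transcripts were shared equally among them, per the study's methods. The members and lists were chosen with earlier results of these data known. Named were all 10 members, up to 3 genes per list and contrast with the lowest adjusted p under 0.05, and the 5 highest and 3 lowest correlated genes of Dbp and Arntl. A few genes that this rule names are not reported here, though the counts of the lists include them.

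Genes with at least 1 CPM in at least 5 libraries were fitted over 40 libraries and 8 groups with edgeR 4.0.16 (R 4.3.3; TMM scaling, robust quasi-likelihood test) in 13 contrasts, 10 pairwise and 3 interactions, with Benjamini-Hochberg adjustment over 13543 genes and a threshold of 0.05. The fit was tested on simulated data. CPM used TMM library sizes. Total counts were 8883870 to 35224669 per library, and the filter kept at least 99.83% of counts. Alternatives were DESeq2 1.42.0, limma 3.58.1 on log2(TPM + 1) of the deposited TPM, 2 other scalings, no filter, insert size as a term (dropping 9mTSCmKO+RM replicate 5, whose label gives none), only the compared groups, a replicate block and leaving out each library. Correlations used log2 CPM with group means removed (SciPy 1.17.1).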

Additional observations from a re-analysis of the deposited data

Results flagged for a closer look

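Within groups of 5, 3 of 80 sets of member values held 1 library far from the other 4, where chance gives about 1 in 20. Per1 was 66.96 CPM in 9mTSCmKO+RM replicate 5 and 42.47 to 48.18 CPM in the others. Per3 was 20.68 CPM in 9mCON replicate 2 and 35.07 to 40.92 CPM in the others. Per3 was 67.56 CPM in 9mCON+RM replicate 2 and 30.33 to 38.93 CPM in the others. The response of Per3 to rapamycin differed between genotypes at 9 months by 1.001 on the log2 scale (edgeR quasi-likelihood test, adjusted p = 0.0312).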

How the results depend on the processing

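The count of clock genes called moved past 1.5 times the reported count as follows. Upper-quartile scaling left 3 for age in TSCmKO, and insert size as a term left 2. Over all genes, calls there were 5064, then 5074 with upper-quartile scaling and 1702 with insert size. Without a filter on low counts 1 was called for rapamycin in 3mTSCmKO (2792 of 22597 genes, against 3196 of 13543 with the filter). The rapamycin by genotype call at 9 months went to 0 with no filter, with insert size and with only the compared groups. All-gene calls there went from 660 to 435, 503 and 201, in that order. Fitting only the compared groups called 2 for genotype under rapamycin at 3 months and 5 for rapamycin in 3mTSCmKO. All-gene calls rose there too, from 1359 to 2563 and from 3196 to 4280. By limma on log2(TPM + 1), 3 were called for genotype at 9 months and 0 for genotype under rapamycin at 3 months. Over all genes limma called 4575 and 1210 there, where edgeR called 5133 and 1359. Leaving out each library gave 3 to 6 calls for genotype at 9 months, 1 to 2 for genotype at 3 months, 0 to 1 for genotype under rapamycin at 3 months, 1 to 3 for rapamycin in 3mTSCmKO, 3 to 6 for age in TSCmKO, 0 to 1 for either rapamycin by genotype interaction and 6 to 20 correlated pairs. The 9-month libraries alone gave 0 correlated pairs. Calls gained with only the compared groups fitted included Nr1d2 for genotype under rapamycin at 3 months (-0.39, edgeR adjusted p = 0.0233), Per1 for rapamycin in 9mTSCmKO (-0.54, 0.0307) and Per2 in 3mTSCmKO (0.67, 0.0449), and Dbp for genotype under rapamycin at 9 months was gained without 9mCON+RM replicate 5 (-0.79, 0.0383). The cause was not tested. For the 10 members no called value reversed, 91 calls were lost and 8 gained, and 2541 results stayed. Results called in neither fit were counted as stayed whatever their sign. Among the other lists Fos reversed with rapamycin in 9mCON, from -2.92 to 0.09 without 9mCON replicate 2, and is named here after its values were seen. Replicate numbers did not pair the libraries: 13 of 50 same-number correlations exceeded 0.1 (range -0.363 to 0.412), and in 13 of 50 comparisons over 10 contrasts, which reuse libraries, a library correlated best with its own number. The replicate block gave 6 calls for genotype at 9 months, 5 for age in TSCmKO (Dbp was lost) and 12 correlated pairs.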
